A study of Homo sapiens with 6 samples.

Results

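The genes described here are 46 genes of the MYC network and of ribosome biogenesis, out of 27216 rows in an RNA-sequencing table of H1975, a human line of non-small cell lung cancer with mutant EGFR. They were chosen by name and role, as 5 genes of the MYC network and 41 genes that act in rRNA synthesis, rRNA modification or assembly of the 40S and 60S subunits. Parental H1975 cells were labelled as treated with osimertinib (Osi, an EGFR tyrosine kinase inhibitor) for 0 h, and their columns were named for DMSO. Adapted H1975 cells had received 1000 nM Osi for 72 h. Each group had 3 samples. All cells were labelled wild type and as grown in DMEM with serum, although the study's methods name another medium. Their RNA was labelled as digested with RNase R, an exonuclease of linear RNA, although total RNA was named elsewhere for the same experiment. Whether the parental cells were held in DMSO for 72 h is not stated, so treatment and time in culture cannot be told apart. Dead cells were rinsed off before lysis of the adapted cells. A change of a transcript within cells and a loss of the cells that held more or less of it therefore cannot be told apart, nor can fewer cells of a type and less RNA per cell. No label says that the replicates came from separate cultures, so the p-values measure the spread between these samples, which may be technical.

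MYC is a transcription factor that binds DNA as a dimer with MAX, often at the E-box CACGTG. MXD1, MXI1 and MXD4 bind the same partner and the same box and repress, while MYCL is a paralog of MYC. Ribosome biogenesis is a textbook output of MYC. RNA polymerase I transcribes rRNA in the nucleolus, small nucleolar ribonucleoproteins (snoRNPs) modify it, and a series of assembly factors builds the 2 subunits and exports them.

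Values are log2(FPKM + 1), with FPKM standing for mapped fragments per unit of transcript length and of library size. The authors did not name the unit, and it was read from the values. Depth is unknown. The cells carried the markers of their label, since EPCAM, KRT8, KRT18, KRT19, CDH1 and EGFR lay between 7.08 and 9.88 in every sample. By the test given below, KRT8, KRT18 and KRT19 fell in adapted cells, with log2 fold changes of -0.28, -0.57 and -0.75. EPCAM, CDH1 and EGFR did not pass that test. Of 8 blood, endothelial and fibroblast markers, PTPRC, CD3E, COL1A2 and PDGFRB lay between 0.00 and 0.08. The summed linear value of all 8 was 78.7 to 80.8 in parental and 26.6 to 37.8 in adapted samples, most of it CD68, at 6.22 to 6.27 and 3.96 to 4.93. COL1A1 was at 1.99 to 2.04 and 2.97 to 3.28, CDH5 at 0.16 to 0.27 and 1.19 to 2.08, and PECAM1 at 0.996 to 1.40 and 0.08 to 0.10. The part of such genes in the results below was not tested.

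Across the 46 genes, 9 rose in adapted cells, 16 fell and 21 did not pass the test (limma, adjusted p under 0.05). All 46 passed the filter on low values, MYCL only through its level in adapted cells. The 25 called genes are 54.3% of the 46, beside 56.9% of all 12656 rows tested. By direction, 19.6% of the 46 rose and 34.8% fell, beside 30.7% and 26.2% of all rows. These shares over all rows are the background for the counts of each group and list below. The median log2 fold change of the 46 was -0.04, beside 0.03 over all rows tested. A change of at least 0.5 on the log2 scale was called for 7 of the 46 (MYCL, MAX, MXD1, UBTF, FBL, RRS1 and BOP1), beside 30.0% of all rows. The 3 adapted values lay all above the parental ones for 12 genes and all below for 19, together 31 of 46, beside 66.3% of all rows. The share of the 46 that fell was thus above that of the table and the share that rose below it, differences that were not tested. The largest changes, of MYCL and MAX, sat in the MYC network. MXD1, at -0.761, and FBL, at -0.753, came next and lay too close to be ranked.

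**Figure D1:**
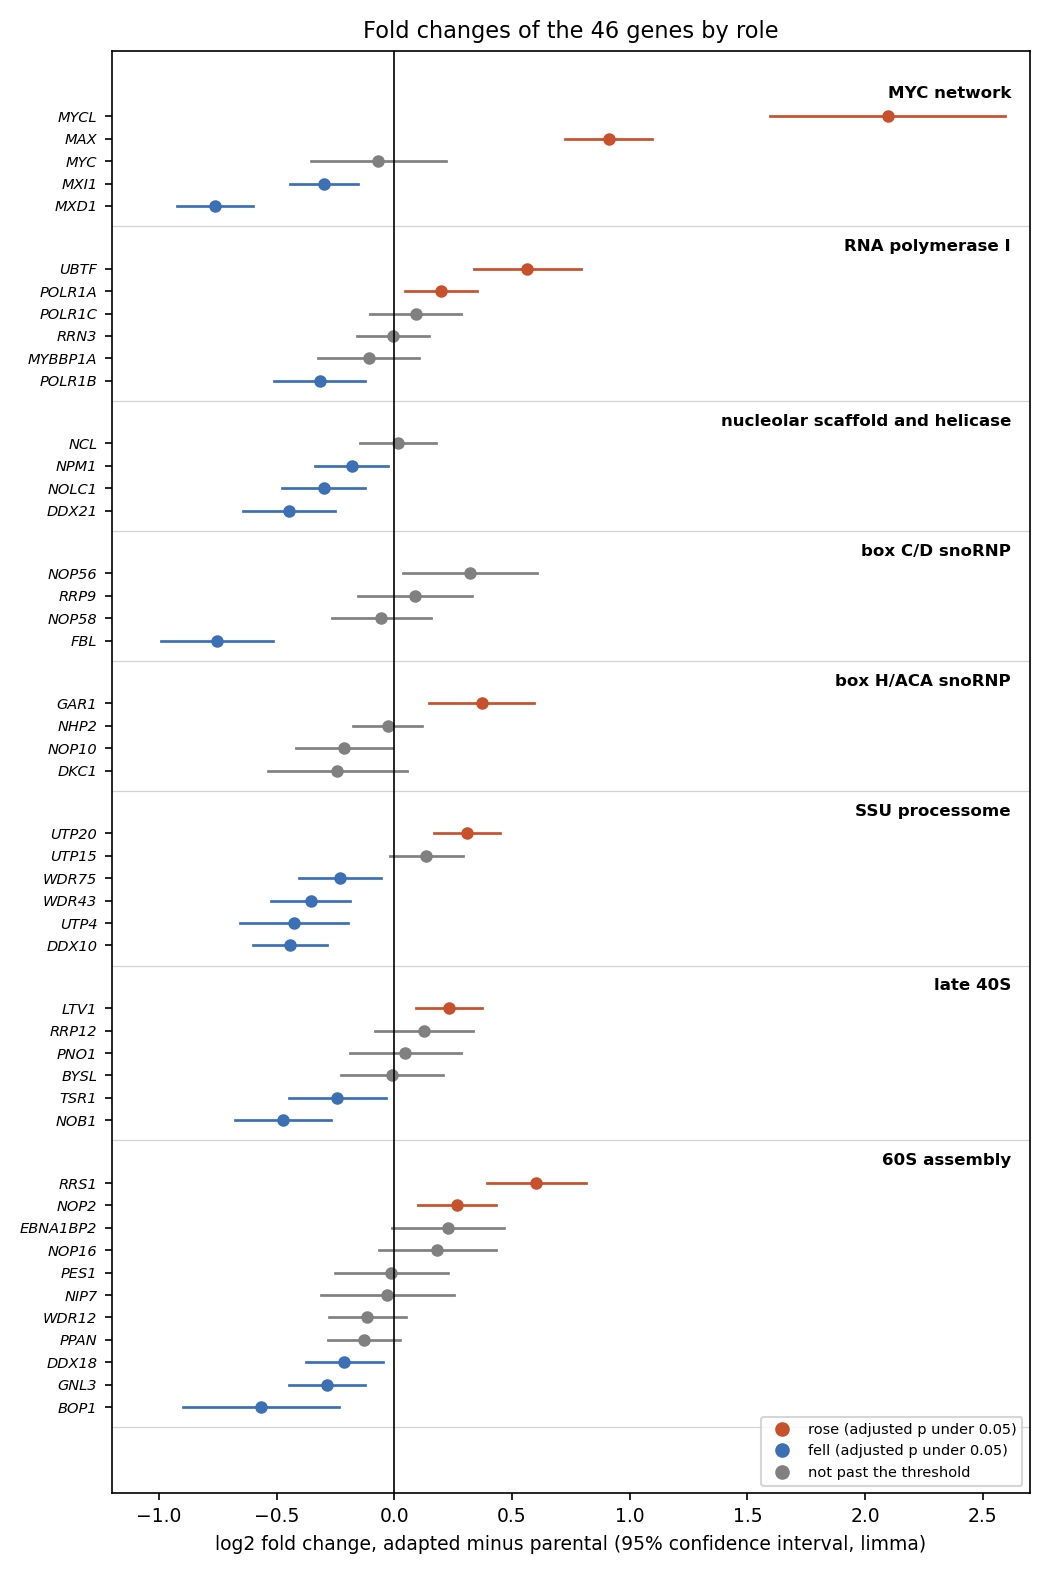
Log2 fold change (x axis, adapted minus parental) of the 46 genes, 1 row per gene within its role group, with bars for the 95% confidence interval of limma (n = 3 and 3), colored by the call. MYCL, at 2.097, and MAX, at 0.91, stand above the other genes, MXD1, at -0.76, and FBL, at -0.75, are the lowest, and each role group holds genes on both sides of 0.

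The E-box was looked for first in the promoters, because it is the letters that MYC and its antagonists share. RefSeq promoter windows (GRCh38.p14, 250 bases before to 50 bases after a start) were at hand for 39 of the 46 genes, RRP12, DDX18, MYC, NOLC1, NOP58, BOP1 and RRS1 being without an entry. CACGTG, which reads the same on both strands, was in 16 of the 39 (95% Wilson interval of the share 27.1% to 56.6%). All 16 were among the 35 ribosome biogenesis genes with an entry, or 45.7%, and none of the 4 MYC network genes with an entry held it. It was in 10.9% of 15843 protein-coding genes with an entry, in 12.8% of those that were tested, and in 28.9% of 97 further ribosome biogenesis genes. A gene counted if any of its windows held the box. More than 1 window was at hand for 11 of the 39 genes, and this was not counted for the other sets. In each of the 16 genes a box began within 50 bases of a start. The windows end 50 bases after a start, so a box after it could lie no farther away. How often this holds in other genes with the box was not counted. The 9 of these genes that rose or fell are printed here, each on its own strand with the box in capitals, to let the letters around the box be read beside the direction of the gene. Genes that fell:
WDR43: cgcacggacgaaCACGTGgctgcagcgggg
GNL3: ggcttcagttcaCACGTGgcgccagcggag
DDX21: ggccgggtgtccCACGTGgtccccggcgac
UTP4: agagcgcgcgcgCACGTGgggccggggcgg
FBL: tgcgctcttttcCACGTGcgaaagccccgg
Genes that rose:
GAR1: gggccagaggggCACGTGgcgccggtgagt
LTV1: gtcctggggctgCACGTGtggtgaggccta
NOP2: aggtccggattgCACGTGgagggccgc
UTP20: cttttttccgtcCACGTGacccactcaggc

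In the order shown, these windows are chr2:28894658-28894687 (plus strand), chr3:52686026-52686055 (plus), chr10:68956604-68956633 (plus), chr16:69132621-69132650 (plus) and chr19:39846356-39846385 (minus) for the genes that fell. For the genes that rose they are chr4:109815781-109815810 (plus), chr6:143843354-143843383 (plus), chr12:6568242-6568268 (minus, ending with the promoter window) and chr12:101280083-101280112 (plus). With the start itself counted as the first base, the box began at bases 4, 7 and 7 in WDR43, GNL3 and FBL. On the same count it began at bases 32, 29 and 36 in GAR1, LTV1 and NOP2. It began 16 and 31 bases before the start in UTP4 and DDX21, and 10 bases before it in UTP20. Genes with the box were found on both sides. Of the 16 with it, 4 rose, 5 fell and 7 did not pass, with a median log2 fold change of -0.01. Of the 23 without it, 4 rose, 8 fell and 11 did not pass, with a median of -0.03. Over all rows tested 30.7% rose and 26.2% fell. The related box CACGCG, searched on both strands, was in 31.4% of the ribosome biogenesis genes and in 18.1% of protein-coding genes. It was in 22.6% of the protein-coding genes that were tested and in 33.0% of the 97 further ribosome biogenesis genes. A match is a description of the letters in the window and not a binding site.

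In the MYC network, MYC itself did not pass the test while its partner rose and its antagonists MXD1 and MXI1 fell. MYC was at 6.68, 6.70 and 6.72 in parental samples 1 to 3 and at 6.86, 6.35 and 6.69 in adapted samples. The groups overlapped, with 1 adapted sample above all parental ones and 1 below. The log2 fold change was -0.07 (95% confidence interval -0.36 to 0.22, adjusted p = 0.658), and it became 0.07 without adapted replicate 2. By parental mean MYC was the 4th highest of the 46 genes, at 103 FPKM in parental and 99.2 in adapted cells. MAX, the obligate partner, was at 3.92, 3.87 and 3.88 in parental and 4.65, 4.92 and 4.82 in adapted samples. All adapted values lay above the parental ones, and the mean FPKM rose 1.95-fold (log2 fold change 0.91 ± 0.079 SE, adjusted p = 9.23e-05).

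MYCL gave the widest shift of the 46 genes, from a low level. It was at 0.70, 0.77 and 0.92 in parental and 2.37, 3.16 and 3.15 in adapted samples. The groups were far apart and adapted replicate 1 was the lowest of its group. The log2 fold change was 2.097 ± 0.21 (SE), with an adjusted p of 0.000181. MYCL passed the filter only through its adapted level, so this p is no separate support for the rise. Without a filter the adjusted p was 0.00542. The ratio of mean FPKM was 9.01, from a parental mean of only 0.739. Even so, adapted MYCL stayed far under MYC, whose lowest sample was at 6.35 on this length-scaled scale.

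The repressors of the network did not move as a group. MXD1 was at 2.90, 2.87 and 2.86 in parental and 2.12, 2.17 and 2.05 in adapted samples. Each adapted sample was lower, with a log2 fold change of -0.76 ± 0.069 (SE, adjusted p = 0.000114). MXI1 was at 3.93, 3.82 and 3.92 and then at 3.60, 3.61 and 3.55, again without overlap (log2 fold change -0.30 ± 0.062 SE, adjusted p = 0.00479). MXD4, of the same family, rose instead, from 3.60, 3.48 and 3.40 to 4.72, 4.84 and 4.85, a log2 fold change of 1.31 ± 0.075 (SE, adjusted p = 1.64e-05). The difference MXD4 minus MXD1 within a sample went from 0.62 ± 0.080 to 2.69 ± 0.10 (SD, n = 3). This pair was chosen after its values were seen. Its lack of overlap follows from the opposite moves of both genes and adds nothing to them. MAX minus MXD1 went likewise from 1.01 ± 0.0094 to 2.68 ± 0.13, and MYC minus MXD1 from 3.82 ± 0.043 to 4.52 ± 0.30.

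**Figure D2:**
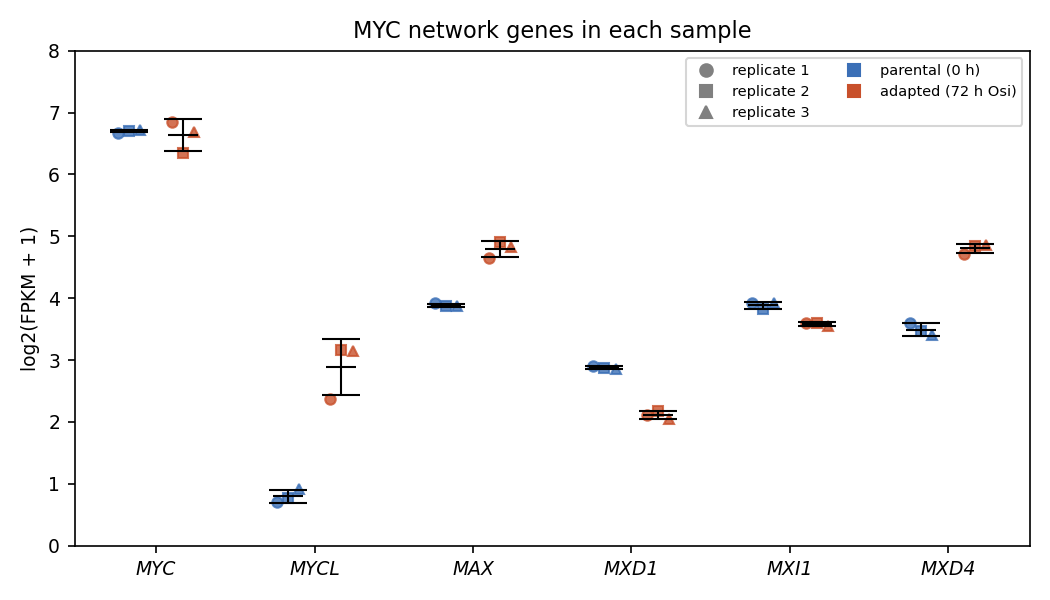
log2(FPKM + 1) of 6 MYC network genes (x axis) in each sample, with marker shape for the replicate, color for the group, and black bars for the mean ± SD (n = 3). MYC overlaps between the groups, MYCL, MAX and MXD4 are higher in all 3 adapted samples, and MXD1 and MXI1 are lower in all 3.

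Among 8 further network genes, 6 could be tested, and 2 rose, 1 fell and 3 did not pass. Beside MXD4, MLXIP, a partner of MLX, rose by a log2 fold change of 0.18 (adjusted p = 0.0349), a call lost in 7 alternatives. MLX, which pairs with MXD and MLXIP proteins, fell by 0.55 on the log2 scale (adjusted p = 0.00019). Of 15 other textbook MYC targets tested, 3 rose, 6 fell and 6 did not pass, with a median of -0.14. ODC1, the first enzyme of polyamine synthesis, rose by 1.25 and CAD, which starts pyrimidine synthesis, by 0.65. HSPD1, a mitochondrial chaperonin, fell by 0.72 and SHMT2, a mitochondrial enzyme of serine and one-carbon metabolism, fell by 0.56.

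In the RNA polymerase I group, 2 genes rose, 1 fell and 3 did not pass. UBTF, which binds the rDNA and holds it open for transcription, was at 4.78, 4.80 and 4.63 in parental and 5.16, 5.25 and 5.49 in adapted samples. All adapted values were higher (log2 fold change 0.57 ± 0.096 SE, adjusted p = 0.00204). POLR1B, the second largest subunit of the polymerase, was at 3.89, 3.80 and 3.82 and then at 3.67, 3.46 and 3.42, all lower (log2 fold change -0.32 ± 0.083 SE, adjusted p = 0.0135, lost at 0.0572 without parental replicate 1). POLR1A, the largest subunit and its partner in the catalytic core, went the other way, with a log2 fold change of 0.20 and an adjusted p of 0.034, a call lost in 5 of 16 alternatives (adjusted p up to 0.128). The difference POLR1A minus POLR1B went from -0.34 ± 0.059 to 0.18 ± 0.077 (SD, n = 3), so that the order of both subunits changed. RRN3, which brings the polymerase to the rDNA promoter, had a log2 fold change of 0.00 (95% confidence interval -0.16 to 0.15), POLR1C, shared with RNA polymerase III, one of 0.09, and MYBBP1A, a nucleolar MYB-binding protein, one of -0.11. None of these 3 passed. UBTF minus RRN3 rose from 0.66 ± 0.046 to 1.23 ± 0.14.

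Of 11 further genes of RNA polymerase I, 2 rose and 6 fell, or 72.7% called, beside 56.9% of all rows. These 11 had a median log2 fold change of -0.35. Their median absolute change was 0.54, beside 0.15 in the 6 above and 0.31 over all rows tested, differences that were not tested. Of 4 listed subunits of the promoter factor SL1, 1 rose and 3 fell. TAF1C rose by 0.59 (adjusted p = 0.000158), and TAF1A had a log2 fold change of -0.91 (adjusted p = 4.17e-05). TAF1D, at -0.65 (adjusted p = 0.000225), and TAF1B, at -0.35 (adjusted p = 0.0148), were named after their values were seen. POLR1G, a polymerase subunit at a low level, rose by 0.57, and TCOF1, a nucleolar factor of rDNA transcription, fell by 0.78 on the log2 scale.

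Of the nucleolar scaffold and helicase genes, none rose and 3 of 4 fell. NCL (nucleolin) was at 7.41, 7.43 and 7.42 in parental and 7.53, 7.33 and 7.45 in adapted samples. The groups overlapped, and the log2 fold change was 0.02 (95% confidence interval -0.15 to 0.18, adjusted p = 0.855). DDX21, an RNA helicase of rRNA transcription and processing, was at 5.67, 5.64 and 5.52 and then at 5.31, 5.10 and 5.07. All adapted values were lower (log2 fold change -0.45 ± 0.083 SE, adjusted p = 0.00305). NOLC1, a chaperone of snoRNPs, had a log2 fold change of -0.30 (adjusted p = 0.0116). NPM1 (nucleophosmin), the most abundant of the 46 at 412 FPKM in parental cells, had one of -0.18 with an adjusted p of 0.0497. That call was lost in 9 of 16 alternatives, and NPM1 has 45 annotated pseudogenes with which reads could be shared.

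The box C/D snoRNP, which methylates rRNA on the ribose, had 1 gene that fell and 3 that did not pass. FBL (fibrillarin), its methyltransferase, was at 6.81, 6.87 and 6.84 in parental and 6.28, 5.88 and 6.10 in adapted samples. Each adapted value was lower, and the mean FPKM was 0.594 of the parental one (log2 fold change -0.75 ± 0.10 SE, adjusted p = 0.000677). NOP56, a core scaffold protein, was at 5.74, 5.74 and 5.75 and then at 6.36, 5.89 and 5.95. The adapted values were all higher, yet the log2 fold change of 0.32 ± 0.12 (SE) did not pass (adjusted p = 0.0553), with adapted replicate 1 far above the other two. NOP58, the other scaffold protein, was at -0.06 and RRP9, which is specific to the U3 snoRNP, at 0.09 as log2 fold changes, and neither passed. In parental cells NOP56 lay below FBL by 1.10 ± 0.030, and in adapted cells both were nearly level, at -0.02 ± 0.12 (SD, n = 3).

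The box H/ACA snoRNP turns uridines of rRNA into pseudouridine, and 1 of its 4 core genes changed. GAR1 was at 3.74, 3.71 and 3.88 in parental and 4.22, 3.97 and 4.26 in adapted samples. No values overlapped (log2 fold change 0.37 ± 0.095 SE, adjusted p = 0.0126, lost at 0.0529 without parental replicate 2). DKC1 (dyskerin), the pseudouridine synthase, was at 6.26, 6.27 and 6.25 and then at 6.32, 5.95 and 5.79. Adapted replicate 1 was above all parental samples and the other 2 were below, and the log2 fold change of -0.24 did not pass (adjusted p = 0.139). The other core proteins had log2 fold changes of -0.21 (NOP10) and -0.03 (NHP2), and neither passed. GAR1 minus DKC1 went from -2.48 ± 0.10 to -1.87 ± 0.30. Of 9 genes that assemble either kind of snoRNP, 2 rose and 3 fell: ZNHIT6, a box C/D assembly factor, rose by 0.80 and SHQ1, a chaperone of dyskerin, by 0.31 (lost in 4 of 15 alternatives), while RUVBL2 fell by 0.52 and PIH1D1 by 0.46, both of the R2TP chaperone complex.

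**Figure D3:**
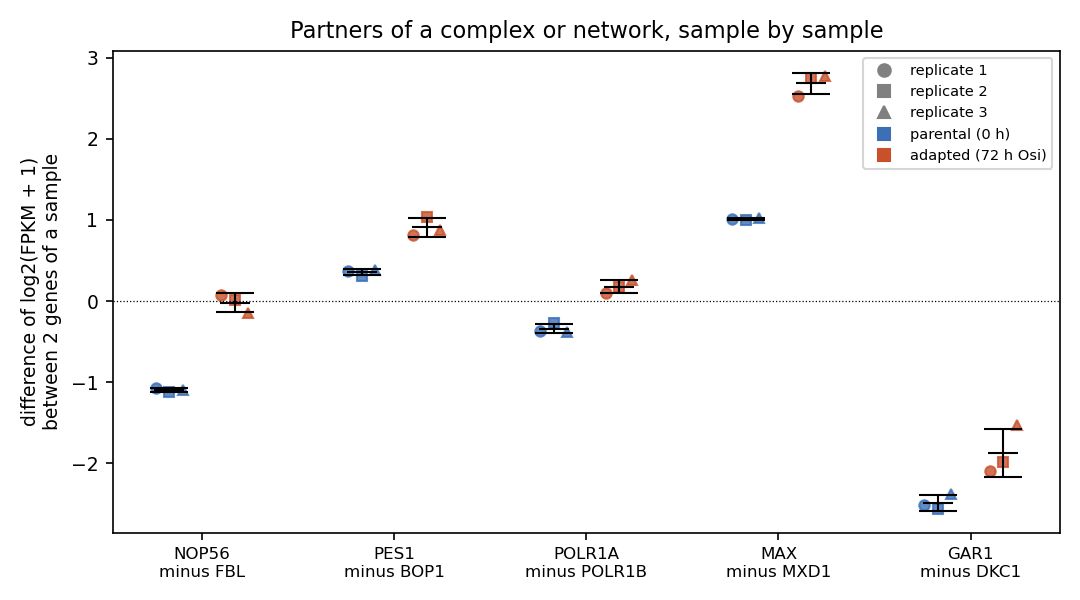
Difference in log2(FPKM + 1) between both genes of a pair (y axis) in each sample for 5 pairs chosen after their values were seen, with marker shape for the replicate, color for the group, and bars for the mean ± SD (n = 3). In each pair the 3 adapted samples lie above the 3 parental samples, with NOP56 minus FBL going from -1.10 to -0.02.

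The SSU processome, which folds and cuts the early 40S precursor, had 4 genes that fell, 1 that rose and 1 that did not pass. DDX10, an RNA helicase, was at 3.86, 3.93 and 3.99 in parental and 3.49, 3.42 and 3.54 in adapted samples. All adapted values were lower (log2 fold change -0.44 ± 0.067 SE, adjusted p = 0.00113). UTP20, a large scaffold protein, was at 3.19, 3.13 and 3.15 and then at 3.49, 3.45 and 3.46. All were higher, with a log2 fold change of 0.31 ± 0.059 (SE, adjusted p = 0.00352). UTP4, WDR43, WDR75 and UTP15 belong to the subcomplex that joins the nascent transcript first. UTP4 had a log2 fold change of -0.43 (adjusted p = 0.00763), WDR43 of -0.36 (adjusted p = 0.00452) and WDR75 of -0.23 (adjusted p = 0.0309, lost in 4 of 16 alternatives with an adjusted p of up to 0.11), while UTP15 was at 0.14 and did not pass.

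Of 6 late 40S genes, LTV1 rose and NOB1 and TSR1 fell. NOB1, the nuclease that cuts the end of 18S rRNA, was at 6.23, 6.24 and 6.25 in parental and 5.96, 5.65 and 5.70 in adapted samples. All adapted values were lower (log2 fold change -0.47 ± 0.087 SE, adjusted p = 0.00294). LTV1, an assembly factor released in the cytoplasm, was at 3.71, 3.62 and 3.66 and then at 3.91, 3.85 and 3.92, all higher (log2 fold change 0.23 ± 0.060 SE, adjusted p = 0.0132, lost in 2 of 16 alternatives with an adjusted p of up to 0.0661). TSR1, a GTPase-like factor, had a log2 fold change of -0.24 with an adjusted p of 0.0479, lost in 8 of 16 alternatives. PNO1, the partner of NOB1, was at 0.05, BYSL, a 40S assembly factor, at -0.01 and RRP12, a factor of nuclear export, at 0.13, and none passed. Among 41 further 40S genes, 10 rose and 8 fell, led by NOP9 (0.64) and UTP3 (0.57) on the upper side and ESF1 (-0.56) and NAT10 (-0.39), an RNA acetyltransferase, on the lower.

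Of 11 genes of 60S assembly, 2 rose, 3 fell and 6 did not pass. RRS1, which helps to place the 5S RNP, was at 4.45, 4.45 and 4.45 in parental and 5.25, 4.95 and 4.95 in adapted samples. All adapted values were above the parental ones, which differed by no more than 0.01 (log2 fold change 0.60 ± 0.089 SE, adjusted p = 0.00103). BOP1 was at 4.93, 4.91 and 4.87 and then at 4.67, 4.08 and 4.27, all lower (log2 fold change -0.57 ± 0.14 SE, adjusted p = 0.0113, lost at 0.0629 without a filter on low values). BOP1 acts with PES1 and WDR12 in 1 complex, PeBoW. PES1 was at -0.01 and WDR12 at -0.11 as log2 fold changes, without a call, and PES1 minus BOP1 went from 0.36 ± 0.038 to 0.91 ± 0.12 (SD, n = 3).

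NOP2, an rRNA methyltransferase, rose by 0.27 (adjusted p = 0.0147, lost in 2 of 16 alternatives with an adjusted p of up to 0.0592). GNL3 (nucleostemin), a nucleolar GTPase of proliferating cells, had a log2 fold change of -0.29 (adjusted p = 0.00929), and DDX18, an RNA helicase, one of -0.21 (adjusted p = 0.0355), lost in 7 of 16 alternatives. The nucleolar assembly factors EBNA1BP2, NOP16, NIP7 and PPAN had log2 fold changes of 0.23, 0.18, -0.03 and -0.13, and none passed. Among 50 further 60S genes, 10 rose and 13 fell. EIF6, which keeps the subunits apart until the 60S is mature, rose by 0.62 and ZNF622, a factor of cytoplasmic 60S maturation, by 0.59. RRP1 fell by 0.61 and BRIX1 by 0.46 on the log2 scale. Over all 111 further ribosome biogenesis genes, 24 rose and 30 fell, together 48.6%, beside 56.9% of all rows tested. Their median of -0.02 was close to the -0.03 of the 41.

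The adapted samples were not alike in these genes. The median SD between replicates was 0.034 in parental and 0.14 in adapted samples, beside 0.058 and 0.13 over all rows tested. Adapted replicate 1 was the highest of its group in 31 of the 41 ribosome biogenesis genes, or 75.6%, and in 39.6% of all rows tested. The order was not particular to the 41, since the same sample was highest in 12 of 15 other textbook MYC targets. It was also highest in 24 of 41 further 40S genes, 25 of 50 further 60S genes and 5 of 9 snoRNP assembly genes. Among further MYC network genes it was highest in 3 of 6, and among further RNA polymerase I genes in 4 of 11. The mean of the 41 genes was 4.91, 4.91 and 4.91 in parental samples and 4.98, 4.77 and 4.80 in adapted samples, with replicate 1 above and the others below the parental level. The linear values of the 46 genes summed to 2008, 2033 and 2019 in parental and to 2056, 1762 and 1833 in adapted samples. Without adapted replicate 1, the calls among the 46 went from 9 to 10 that rose and from 16 to 23 that fell, together 71.7%. Calls over all rows rose as well, to 66.2%, with 35.1% that rose and 31.1% that fell. MYBBP1A, NOP58, DKC1, NOP10, PES1, PPAN and NIP7 then fell, NOP56 then passed as higher, and the median log2 fold change was -0.14.

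Proliferation markers moved with the same sample. All 12 fell in adapted cells, beside 26.2% of all rows tested. Their median log2 fold change was -1.68, with MKI67 at -1.89. Adapted replicate 1 held the highest value of its group in 12 of 12. Their mean was 4.74 in adapted replicate 1, 4.05 and 3.98 in the other adapted samples, and 5.80 to 5.82 in parental samples, and their summed linear value was 360, 221 and 208 against 764 to 780. The part of proliferation in the ribosome biogenesis values was not tested. The median of the 41 genes lay at -0.03 beside this fall.

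**Figure D4:**
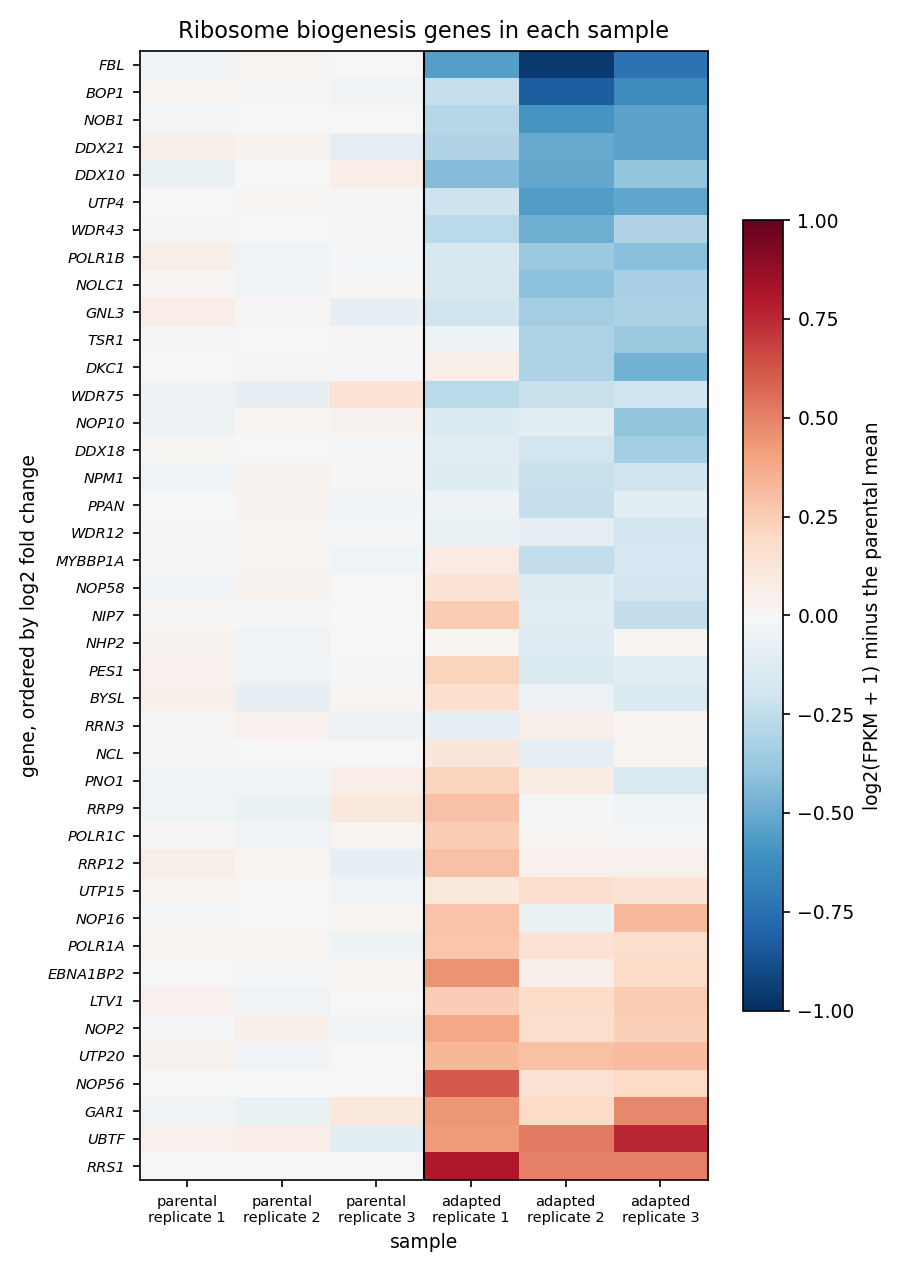
Each cell is the log2(FPKM + 1) of 1 of 41 ribosome biogenesis genes (y axis, ordered by log2 fold change) in 1 sample (x axis) minus the parental mean of the gene, red for higher and blue for lower. Parental columns are nearly blank, and adapted replicate 1 is the reddest or least blue of the adapted columns in 31 genes.

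Several of the 46 genes hold other RNA genes within their bounds, which bears on what a count of their reads covers. In the GENCODE release 29 annotation, 9 of the 46 (19.6%) contain a total of 28 small nucleolar RNA genes, against 1.91% of 11694 protein-coding rows tested. NOP56 holds 5 of them, NOP58 4, NCL and WDR43 3 each, and DKC1, TSR1 and PPAN 2 each, while GNL3 holds 6 and POLR1C 1. None of these 9 rose, 3 fell and 6 did not pass, with a median of -0.13. Of the other 37, 9 rose and 13 fell, with a median of -0.03. Over all rows tested 30.7% rose and 26.2% fell. The difference between genes with and without such RNA genes was not tested. How reads in such introns were counted is not given in the sources used here. MAX, MYBBP1A, PES1, WDR12 and BOP1 are among those that overlap genes on the opposite strand, and MXD1, UTP4 and PPAN among those that overlap genes on their own strand, so their values are less certain if strand was not used or overlapping reads were shared.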

How the data were processed

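RNA was sequenced from 3 parental and 3 adapted samples of H1975 cells. The values deposited by the authors are on a log2 scale, read from the numbers themselves as log2(FPKM + 1). The submitters' processing notes name STAR, Bowtie2 2.1.0, edgeR and hg38 without their roles, and the quantifier and annotation are not given in the sources used here. Depth is unknown, and errors come from the spread between replicates alone. The authors named DESeq2, which needs counts, so limma 3.58.1 in R 4.3.3 (trend, unpaired, two-sided) was used on rows with a mean of at least 1, with Benjamini-Hochberg adjustment over all of them and a threshold of 0.05. The procedure was tested on simulated data. In 147 rows the values of 1 group carry an added constant. None of the genes named here is among them. The members, gene lists and pairs of genes were chosen with earlier results of these data known, so no list was tested and no p was adjusted over a list alone. Values in every sample are given for the MYC network and for the members with the highest and lowest fold change in each other group, and from the further lists up to 2 genes in each direction are named. Alternatives tried were no filter, a pseudocount of 0.1, a mean of at least 3, 3 normalizations, 2 other eBayes settings, a replicate block, subtraction of the constants, and each sample left out. Promoter windows came from RefSeq (GRCh38.p14) and gene bounds from GENCODE release 29.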

Additional observations from a re-analysis of the deposited data

How the results depend on the processing

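Of the 25 called genes, 15 kept their call in every alternative run that tested them and 10 lost it in at least 1. None turned its direction. MYCL and MXD1, among the 15, lay below the filter at a mean of at least 3 and were not tested there. With that filter 23 of the 46 were called (8 rose, 15 fell). With the replicate number as a replicate block, 21 of the 46 were called (8 rose, 13 fell) and 6761 of all rows. Samples with the same number did not deviate together (correlations of -0.051, -0.031 and -0.020). Whether they were paired by culture or batch is not stated, and correlations over 3 samples a group cannot decide it. With a filter at a mean of at least 3, 4532 rows were called in place of 7202, since fewer were tested, along with 1 gene that rose among the further RNA polymerase I genes and 1 among the snoRNP assembly genes. Without a filter the snoRNP assembly list held 3 calls with 1 that rose. Among the further MYC network genes 1 rose under quantile normalization, median centring and the replicate block, in place of 2. RRN3 turned to 0.004 with an equal linear sum and NCL to -0.004 with median centring. With each sample left out in turn, the 46 genes gave 18 to 33 calls (6 to 12 that rose, 11 to 23 that fell, median -0.14 to -0.01) and all rows 5778 to 8371. The further 40S genes then gave 9 to 24 calls (5 to 14 rose, 4 to 10 fell), the 60S genes 12 to 30 (5 to 12 rose, 7 to 18 fell), the MYC network genes 2 to 5 (1 to 2 rose, 1 to 3 fell) and the snoRNP assembly genes 3 to 6 (1 to 2 rose). Genes without a call that turned direction ranged from -0.18 to 0.074 (MYC), -0.032 to 0.035 (RRN3), -0.10 to 0.056 (BYSL), -0.13 to 0.054 (PES1), -0.031 to 0.070 (NCL), -0.018 to 0.144 (RRP9), -0.039 to 0.148 (PNO1), -0.053 to 0.019 (NHP2), -0.17 to 0.076 (NIP7) and -0.15 to 0.007 (NOP58). Where no other cause is given, the cause was not tested. With 3 samples a group and no depth, changes near 0.2 on the log2 scale lie at the edge of what was called.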

Other observations

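SENP3, a nucleolar SUMO protease that acts on 60S precursors, had the widest spread between parental replicates of the 111 further ribosome biogenesis genes, at 5.43, 3.64 and 5.23 in parental and 4.01, 5.18 and 5.19 in adapted samples. EIF4A1, a translation initiation helicase among the textbook MYC targets, was at 9.76, 8.86 and 9.57 in parental and 9.06, 9.27 and 9.41 in adapted samples, with parental replicate 2 the lowest of its group, as for SENP3. Both genes were named after their values were seen, and they did not pass the test.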
